A study of Homo sapiens with 39 samples.

Results

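The genes described here are 10 alpha and beta tubulin genes, chosen by name from the 20802 gene targets of a whole transcriptome panel: TUBA1A, TUBA1B, TUBA1C, TUBA4A, TUBB, TUBB2A, TUBB2B, TUBB3, TUBB4B and TUBB6. The question was how their mRNAs stood in HepaRG™ cells after colchicine (COL), against the matched vehicle control and against 9 other chemicals. HepaRG™ is an established line of human liver progenitor cells, which yields cells resembling hepatocytes and cholangiocytes once differentiated. Differentiated cells were treated daily and sampled 7 h after the third treatment, at 55 h of total exposure. RNA of 3 cultures was pooled into 1 library per condition, so these libraries hold no measure of the spread between cultures and a single treated library has no replicate check.

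COL was given at 0.05, 0.1 and 0.3 µM in DMSO. Of the other chemicals, those in DMSO were AFB1 (aflatoxin B1; 0.25, 1 and 2.5 µM), 2NF (2-nitrofluorene; 10, 50 and 250 µM), CISP (cisplatin; 2, 5 and 10 µM) and ETP (etoposide; 0.5, 2.5 and 10 µM). MMS (methyl methanesulfonate; 50, 100 and 200 µM) was given in water. Those in media were 2DG (2-deoxy-D-glucose; 1.25, 5 and 10 mM), AMP (ampicillin trihydrate; 1, 3 and 10 mM), ASC (sodium ascorbate; 1, 2 and 10 mM) and NaCl (sodium chloride; 1, 2.5 and 10 mM). The 9 controls received vehicle alone: 4 DMSO, 4 media and 1 water, with 1 DMSO control shared by COL and AFB1. The 3 concentrations of a chemical are called low, mid and high.

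Alpha and beta tubulin form the dimer from which microtubules are built, and colchicine binds that dimer and blocks its addition to microtubules. Cells that hold too much free dimer are known to lower their tubulin mRNAs, a feedback called tubulin autoregulation. In it, the ribosome-associated factor TTC5 recognises the first residues of a newly made tubulin chain and, with SCAPER and the CCR4-NOT deadenylase, leads the translated mRNA to decay. The signal lies in the start of the protein, methionine-arginine-glutamate followed by cysteine in alpha and by isoleucine in beta tubulin. The coding starts are therefore shown first.

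The coding start of each gene was read from its principal transcript in GENCODE 29 (GRCh38), and all 10 genes had an entry. The first 24 coding bases are given 5′ to 3′, with the 12 bases that encode the recognised residues in capitals. TUBG1, the gamma tubulin of microtubule nucleation, is shown for contrast and wholly in lower case.
TUBA1A: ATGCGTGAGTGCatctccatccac
TUBA1B: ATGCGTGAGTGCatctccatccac
TUBA1C: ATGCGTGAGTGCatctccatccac
TUBA4A: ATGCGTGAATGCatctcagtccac
TUBB: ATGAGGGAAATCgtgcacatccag
TUBB2A: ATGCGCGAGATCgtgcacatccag
TUBB2B: ATGCGTGAGATCgtgcacatccag
TUBB3: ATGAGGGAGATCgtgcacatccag
TUBB4B: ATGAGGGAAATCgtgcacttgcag
TUBB6: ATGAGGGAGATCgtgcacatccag
TUBG1: atgccgagggaaatcatcacccta

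All 10 genes encoded a recognised start, the alpha genes with 2 spellings of the 12 bases and the beta genes with 4. Among 19470 protein-coding genes with a complete coding start, 19 (0.0976%) encoded either form, 9 the alpha and 10 the beta form, and none of them was a gene other than a tubulin. TUBA1A, TUBA1B and TUBA1C had the same 24 bases. In TUBG1 the run AGGGAAATC of TUBB (bases 4 to 12) stood 1 codon further in (bases 7 to 15), so its protein does not begin with the recognised residues.

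The start codons lie on GRCh38 at chr12:49188417-49188419 (TUBA1A, minus strand), chr12:49131298-49131300 (TUBA1B, minus), chr12:49265182-49265184 (TUBA1C, plus) and chr2:219253856-219253858 (TUBA4A, minus). Those of the beta genes lie at chr6:30720507-30720509 (TUBB, plus), chr6:3157461-3157463 (TUBB2A, minus), chr6:3227541-3227543 (TUBB2B, minus), chr16:89923402-89923404 (TUBB3, plus), chr9:137241361-137241363 (TUBB4B, plus) and chr18:12308293-12308295 (TUBB6, plus). In the 4 alpha genes the first coding exon held the start codon alone, while in the 6 beta genes it held 57 coding bases. The coding sequences are near copies of each other: TUBA1A was 97.2% identical to TUBA1B and 95.9% to TUBA1C, TUBB2A was 98.2% identical to TUBB2B, and TUBA1A was 84.4% identical to TUBA4A. Reads of such copies could be divided between amplicons, so the values of single paralogues are uncertain to that extent.

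Levels are given as RPM, the count of an amplicon scaled to the total of its library. Totals ranged from 8504699 to 16425527 reads over the 39 libraries (median 11202013). Each gene is read by 1 amplicon with its own primers, so levels are compared between libraries and not between genes. Of the 10 tubulin genes, 9 passed the filter on low counts and entered the fit of 14107 genes. TUBB6 had 0 reads in 37 libraries and 1 read in the other 2, which with 3 counts as the limit of a count of 0 allows at most 0.183 to 0.353 RPM, so nothing could be said of it. The cells carried the transcripts of hepatocytes: 10 of 10 hepatocyte markers were detected, ALB at 26125 RPM in the control of COL. Of the 7 markers of cholangiocyte-like cells 6 had a target, among which KRT19 stood at 1233 RPM in that control, while KRT7 and EPCAM stayed at or under 0.338 RPM in all treated libraries of the other chemicals and at or under 0.099 RPM in COL.

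TUBA1A, an alpha tubulin best known from neurons, was the tubulin gene with the highest fold change in COL. Its level was 44.6 RPM in the matched control and 60.9, 92.1 and 152 RPM at 0.05, 0.1 and 0.3 µM. The level was higher at each higher concentration, and the library at 0.3 µM stood above all 38 other libraries, of which the highest, MMS high, had 114 RPM. The 27 other treated libraries ranged from 34.0 to 114 RPM (median 54.9) and the 9 controls from 33.6 to 61.1 RPM. The COL library at 0.05 µM thus lay inside both ranges, and that at 0.1 µM inside the range of the other treated libraries. The log2 ratio of RPM + 1 to the control was 0.44, 1.03 and 1.75, where the largest difference between any 2 of the 4 DMSO controls was 0.55. At 0.3 µM this was a 3.36-fold higher level. In such libraries a change in RNA per cell and a change in the share of cells of a type cannot be told apart.

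The remaining alpha tubulins did not follow TUBA1A. TUBA1B, which encodes a ubiquitous alpha tubulin, had 333, 446 and 420.1 RPM in COL from the low to the high concentration, against 451 RPM in the control. All 3 COL libraries lay below the 27 other treated libraries, which ranged from 452 to 992 RPM (median 677), but the lowest of the 9 controls had 437 RPM and overlapped them. TUBA1C, a near copy of TUBA1B in the same cluster on chromosome 12, had 502, 678 and 577 RPM against 713 RPM in the control and 639 to 1376 RPM in the other treated libraries. The COL library at 0.1 µM lay inside that range and the other two below it.

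TUBA4A, an alpha tubulin whose gene lies on chromosome 2, had 148, 136 and 146 RPM in COL and 158 RPM in the control. These were the 3 lowest of the 39 libraries, below the 27 other treated libraries (163 to 468 RPM) and the 9 controls (158 to 252 RPM). The matched control was itself the lowest control, and the log2 ratios to it were small, -0.09, -0.22 and -0.11. All 3 COL libraries below the 27 other treated libraries was found for 2 of the 9 tubulin genes, TUBA1B and TUBA4A, and for 0.220% of all genes tested. For both genes the matched control, which had no COL, also lay below those 27 libraries. It had 451.4 RPM against at least 452.5 RPM for TUBA1B, and 158 against at least 163 RPM for TUBA4A. This order therefore does not set COL apart from its own control. The opposite order, all 3 above, was found for 0 of 9 tubulin genes and for 0.340% of all genes.

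**Figure D1:**
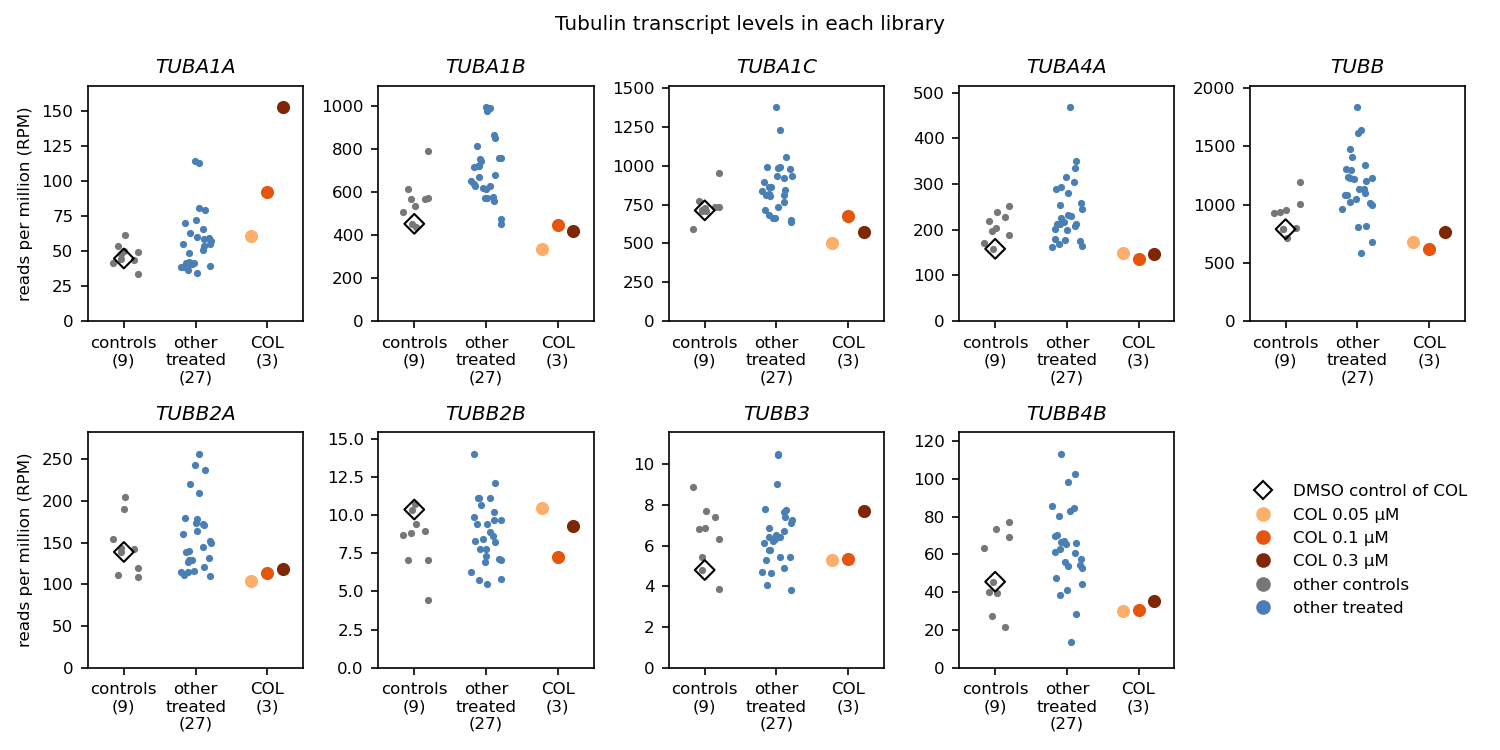
Level in RPM (linear axes from 0) of the 9 tubulin genes that passed the filter, 1 point per library, for the 9 controls (grey, the DMSO control of COL as an open diamond), the 27 libraries of the other chemicals (blue) and the 3 COL libraries (orange to brown with concentration). TUBA1A reaches 152 RPM with COL, while TUBA1B and TUBA4A lie below every other treated library, as they also do in the DMSO control of COL.

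TUBB, a ubiquitous beta tubulin, had 682, 621 and 765 RPM in COL against 789 RPM in the control. The other treated libraries ranged from 584 to 1833 RPM (median 1137), and all 3 COL libraries lay in the lower end of that range. TUBB2A, a beta tubulin encoded on chromosome 6 beside TUBB2B, had 104, 114 and 119 RPM against 139 RPM in the control, with 109.5 to 257 RPM in the other treated libraries. The COL library at 0.05 µM was the lowest of all 39. TUBB4B, also a widely expressed beta tubulin, had 29.9, 30.7 and 35.5 RPM against 45.5 RPM, but its amplicon varied widely, from 13.5 RPM in CISP low to 113 RPM in CISP high.

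TUBB2B and TUBB3, beta tubulins typical of neurons, had few reads, though both passed the filter on low counts. TUBB2B had 10.5, 7.25 and 9.33 RPM in COL and 10.4 RPM in the control, from between 44 and 170 reads per library over the series. TUBB3 had 5.28, 5.36 and 7.70 RPM against 4.80 RPM, from between 38 and 122 reads. Both stayed within the ranges of the other treated libraries, 5.46 to 14.0 RPM for TUBB2B and 3.83 to 10.5 RPM for TUBB3.

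Set side by side, 6 of the 9 tubulin genes had a log2 ratio below 0 in all 3 COL libraries: TUBA1B, TUBA1C, TUBA4A, TUBB, TUBB2A and TUBB4B. This held for 25.2% of all genes tested, and the 3 ratios share 1 control library. A level in ascending order from the control through the 3 concentrations was found for TUBA1A and TUBB3, 2 of 9, against 13.0% of all genes. The median log2 ratio over the 9 genes was -0.21, -0.22 and -0.11 at 0.05, 0.1 and 0.3 µM, the second, the lowest and the fifth from the lowest of the 30 treated libraries. The median over all genes in the same libraries was 0.04, 0.01 and 0.07. The median of the tubulin genes ranged up to 0.82 in MMS mid, 0.69 in MMS high and 0.63 in 2NF high, where 8 of 9 genes were above their control. Of all genes, 44.4, 43.3 and 44.4% were below the control in these libraries, in the same order.

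**Figure D2:**
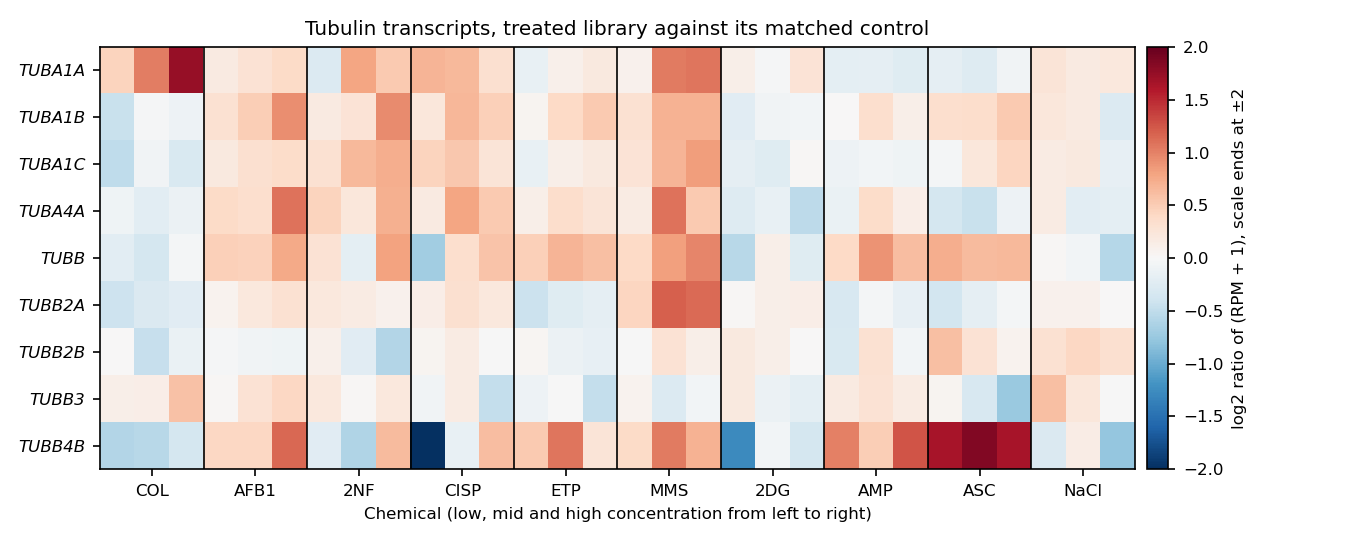
Log2 ratio of RPM + 1 of 9 tubulin genes (rows) in the 30 treated libraries (columns, low, mid and high concentration of each chemical from left to right) to the matched control, red above and blue below 0, with colours ending at 2. In COL, TUBA1A is above 0 with 0.44, 1.03 and 1.75 and 6 genes are below 0 in every library, while in MMS most genes are above 0.

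When the 3 concentrations of a chemical were averaged, COL had the lowest log2 ratio of the 10 chemicals for TUBA1B (-0.19), TUBA1C (-0.29) and TUBB2A (-0.30). Being lowest in COL was found for 3 of 9 tubulin genes and for 7.05% of all genes. COL had the highest mean ratio for TUBA1A (1.07) and TUBB3 (0.28), 2 of 9, against 10.1% of all genes. For TUBB, TUBA4A, TUBB2B and TUBB4B at least 1 chemical lay lower: TUBB was at -0.22 in 2DG and -0.20 in COL and in NaCl, and TUBB4B was at -0.63 in CISP, -0.56 in 2DG and -0.50 in COL. With 1 chemical against 9, an exact permutation over chemicals cannot give a p below 0.1, so no such test was run.

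The counts were then tested in 1 edgeR quasi-likelihood fit of all 39 libraries, with a block for each set of libraries that shares a control and 1 term for each chemical. The 3 concentrations stand in for repeats there, so the spread holds the differences between concentrations, and the single control of a chemical is assumed to vary like the other libraries. In COL against its control 0 of 9 tubulin genes passed an adjusted p of 0.05, as against 7 of 14107 genes (0.0496%). DESeq2 on the same design also called 0 of the 9, beside 1.16% of all genes, with TUBA1A at an adjusted p of 0.0927. At an unadjusted p under 0.05, 0 tubulin genes were lower, against 4.97% of all genes, and 1, TUBA1A, was higher, against 4.83%.

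The log2 fold change of TUBA1A in this fit was 1.13 ± 0.37 (SE), with an adjusted p of 0.233. The alpha tubulins below their control were TUBA1C at -0.33 ± 0.21 (adjusted p = 0.662), TUBA1B at -0.22 ± 0.25 and TUBA4A at -0.19 ± 0.28. Of the beta tubulins, TUBB4B was at -0.56 ± 0.59, TUBB2A at -0.35 ± 0.19 (adjusted p = 0.564), TUBB2B at -0.25 ± 0.27, TUBB at -0.24 ± 0.32 and TUBB3 at 0.29 ± 0.33. The median of the 9 was -0.24 beside 0.01 over all genes tested. The value of TUBA1A rested on the library at 0.3 µM: without it the log2 fold change was 0.74 ± 0.34 (adjusted p = 0.935). TUBA1A passed the test without the COL library at 0.05 µM (1.40 ± 0.35, adjusted p = 0.0396), a fit that called 1.03% of all genes higher. With the high concentrations alone its log2 fold change was 1.69. That fit held 1 COL library and 1 shared term for the other 9 chemicals, and AFB1 high lay in the COL block. Its spread came from the other chemicals, so no p-value is given for it. TUBA1A also passed with the vehicle as the block in place of the matched control set (1.02 ± 0.22, adjusted p = 0.00275). There TUBB2A was called lower (-0.63 ± 0.14, adjusted p = 0.00311), beside 3.80% of all genes. In that fit 5.93% of all genes were called higher and 9.73% in either direction.

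Against the mean of the other 9 chemicals, 7 of 9 tubulin genes were again below 0, beside 52.1% of all genes. In the adjusted test 0 of 9 passed in edgeR or in DESeq2, beside 0.0284% of all genes in edgeR and 0.496% in DESeq2. TUBA1C was at -0.54 ± 0.20 (adjusted p = 0.482), TUBA1B at -0.54 ± 0.24 (adjusted p = 0.649), TUBB2A at -0.46 ± 0.18 (adjusted p = 0.541) and TUBA1A at 0.91 ± 0.35 (adjusted p = 0.507). These 4 had an unadjusted p under 0.05: the 3 lower genes stood beside 3.29% of all genes, and the 1 higher gene beside 3.70%. TUBB was at -0.60 ± 0.31, TUBB4B at -0.98 ± 0.57, TUBA4A at -0.40 ± 0.27, TUBB2B at -0.32 ± 0.26 and TUBB3 at 0.28 ± 0.32. Within the DMSO libraries alone, where COL was set against 4 chemicals of the same vehicle, TUBA1B was at -0.68, TUBA1C at -0.65, TUBA4A at -0.64, TUBB2A at -0.40 and TUBA1A at 0.82, and 0 of 9 tubulin genes and 0 of 13691 genes in all passed. These 5 had an unadjusted p under 0.05, 4 lower beside 2.51% of all genes and 1 higher beside 2.41%. Without COL at 0.3 µM, TUBA1A against the other 9 chemicals was at 0.52 ± 0.32. With the vehicle as the block, 5 genes were called lower (TUBA1B, TUBA1C, TUBA4A, TUBB and TUBB2A) beside 2.07% of all genes, and TUBA1A higher beside 4.93%, in a fit that called 987 genes (7.00%).

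The comparison with AFB1, a DNA-damaging mycotoxin, has no control term, since both chemicals share the same control library. In it TUBA1B was lower in COL by a log2 fold change of -0.78 ± 0.18 (adjusted p = 0.0221), TUBA1C by -0.59 ± 0.15 (adjusted p = 0.0432) and TUBA4A by -0.79 ± 0.20 (adjusted p = 0.0371). Called lower were 3 of 9 tubulin genes beside 0.730% of all genes, and called higher 0 of 9 beside 1.17%. The levels in AFB1 at 0.25, 1 and 2.5 µM were 557, 635 and 864 RPM for TUBA1B, 813, 894 and 923 RPM for TUBA1C and 207, 201 and 336 RPM for TUBA4A. For all 3 genes every AFB1 library lay above every COL library and above the shared control, which stood at 451, 713 and 158 RPM.

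**Figure D3:**
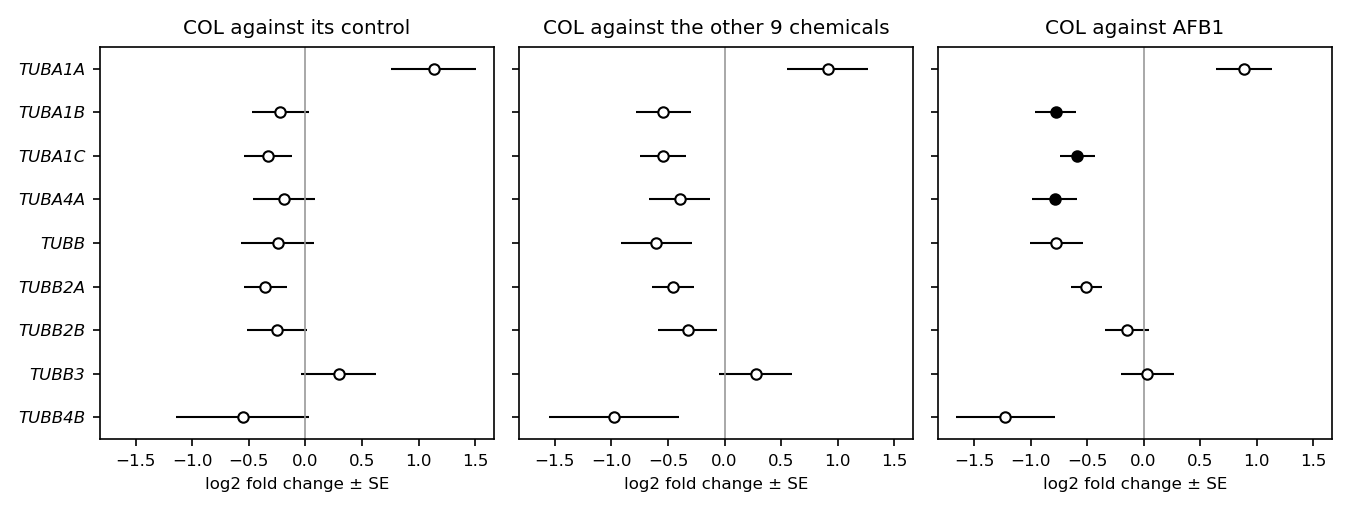
Log2 fold change with its standard error (horizontal bars) of 9 tubulin genes in the edgeR fit of 39 libraries, for COL against its control, against the mean of the other 9 chemicals and against AFB1; filled points passed an adjusted p of 0.05. Filled are TUBA1B, TUBA1C and TUBA4A in the comparison with AFB1, and TUBA1A is at 1.13, 0.91 and 0.89 with open points.

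TUBB2A (-0.51 ± 0.14, adjusted p = 0.0523), TUBA1A (0.89 ± 0.25, adjusted p = 0.0621) and TUBB (-0.77 ± 0.23, adjusted p = 0.0936) missed the threshold against AFB1. TUBB4B was at -1.22 ± 0.44 (adjusted p = 0.177), TUBB2B at -0.15 ± 0.19 and TUBB3 at 0.03 ± 0.23. The 3 calls rested on single libraries: 0 of 9 were called lower without COL at 0.3 µM, without COL at 0.05 µM or without AFB1 at 2.5 µM, 1 (TUBA4A) without AFB1 at 1 µM, and 2 each without COL at 0.1 µM (TUBA1B and TUBA1C) and without AFB1 at 0.25 µM (TUBA1B and TUBA4A). Of all genes, the share called lower was 0.0284% without COL at 0.3 µM and 1.24% without COL at 0.05 µM, and lay between 0.177% and 0.751% in the other 4 of these fits. In AFB1 itself against the control, TUBA1B was at 0.55 ± 0.26 and TUBA4A at 0.60 ± 0.29, and neither passed.

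Of the tubulin genes in the other chemicals, TUBB2A in MMS passed the test. MMS is a directly acting methylating agent. TUBB2A had 111 RPM in the water control and 149, 257 and 244 RPM at 50, 100 and 200 µM, above the control in all 3, with a log2 fold change of 0.87 ± 0.20 (adjusted p = 0.0349). This was 1 of 9 called higher beside 0.135% of all genes in MMS. In the other 8 chemicals 0 of the tubulin genes were called, where 0.00354% of all pairs of gene and chemical passed. DESeq2 called TUBB2A in MMS as well, and no other tubulin gene in any of these 9 chemicals. TUBB4B in ASC had the largest mean ratio of any tubulin gene and chemical, with 69.5, 80.0 and 70.0 RPM against 21.6 RPM in its media control and a log2 fold change of 1.78 ± 0.67 (adjusted p = 0.362). That control was the lowest of the 9 for TUBB4B.

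The difference between the alpha genes can be read without any scaling, as the share of TUBA1A among the reads of the 4 alpha genes in a library. This measure was chosen after the values were seen and is a description. The share was 3.26% in the control of COL (623 of 19100 reads, 95% Wilson interval 3.02 to 3.52%), and 5.83% (5.42 to 6.26%), 6.81% (6.40 to 7.25%) and 11.8% (11.2 to 12.3%) at 0.05, 0.1 and 0.3 µM. The intervals treat each read as independent and hold no spread between cultures. Amplified reads are not independent molecules, so the intervals can be too narrow even for counting error. In the 36 libraries without COL the share ranged from 2.03 to 4.22% (median 3.01%), so that the COL libraries lay above all of them. MMS mid and MMS high, where the level of TUBA1A was highest outside COL, had shares of 4.01% and 4.08%, since the other alpha genes stood higher there too.

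Summed over TUBA1B, TUBA1C and TUBA4A, the alpha level was 984, 1259 and 1143 RPM in COL, 1323 RPM in the matched control and 1273 to 1998 RPM over the 9 controls. All 3 COL libraries lay below the other 36, of which the lowest was that control sum of 1273 RPM. TUBA1A, which was higher in COL, was left out of this sum after its values were seen, so this order is a description only. The 27 other treated libraries had 1291 to 2690 RPM. With TUBA1A included, the alpha sum at 0.1 µM was 1352 RPM and lay inside the range of the others. The beta sum was 832, 778 and 937 RPM in COL, 988 RPM in the matched control, 972 to 1394 RPM over all controls and 824 to 2156 RPM in the other treated libraries. The beta sums in COL thus lay below the 9 controls but overlapped the other chemicals.

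The tubulin genes did not vary as a single group over the 30 treated libraries. As a description, Pearson's r of the log2 ratios was 0.83 between TUBA1B and TUBA1C, 0.75 between TUBA1B and TUBA4A, 0.72 between TUBA1B and TUBB and 0.86 between TUBB and TUBB4B, with libraries of a chemical sharing their control. TUBA1A stood apart, with r = 0.10 to TUBA1B, 0.26 to TUBA1C and -0.23 to TUBB. The genes whose ratios were most like the mean of the 10 tubulin genes, out of 11553 compared, were NINJ1 (r = 0.88), a membrane protein of cell rupture, TP53I3 (0.86), a p53 target, TUBG1 (0.84), ZNF143 (0.82) and BYSL (0.81), a ribosome assembly factor. Most like TUBA1A alone, a search added after its values were seen, were TES (0.92), a protein of focal adhesions, CDC42SE1 (0.88), IQGAP1 (0.88), a scaffold that binds actin and microtubules, and TCEAL3 (0.88). TES had log2 ratios of 0.49, 0.43 and 1.11 in COL and between -0.39 and 0.56 in the other chemicals.

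The other tubulin genes, those of gamma, delta and epsilon tubulin and the remaining alpha and beta genes, comprised 12 targets, of which 6 were tested. In COL all 6 were below the control, beside 49.2% of all genes, with a median log2 fold change of -0.25, and 0 were called. TUBG1 had 121, 133 and 119 RPM in COL and 141 RPM in the control, a log2 fold change of -0.23 ± 0.18 (adjusted p = 0.744), and it lacks the recognised start. TUBA8, an alpha tubulin that has it, had 6.86, 3.77 and 3.47 RPM against 6.94 RPM (-0.60 ± 0.31, adjusted p = 0.537).

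The genes of the decay pathway did not pass the test in COL. TTC5 had 13.7, 13.5 and 14.4 RPM in COL against 16.1 RPM in the control, a log2 fold change of -0.26 ± 0.23 (adjusted p = 0.801). SCAPER had 9.06, 7.84 and 6.18 RPM against 11.2 RPM, lower at each higher concentration, at -0.59 ± 0.29 (adjusted p = 0.510). Of 12 decay genes 11 were tested and 4 were below the control, beside 49.2% of all genes. The median was 0.10 and 0 were called. The deadenylase subunit CNOT6 was the highest of them at 0.39 ± 0.22.

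Of the 20 genes of tubulin folding, which encode the CCT chaperonin, prefoldin and the tubulin cofactors, 0 were called and the median was 0.06. TCP1, a CCT subunit, had 238, 228 and 264 RPM against 177 RPM (0.40 ± 0.14, adjusted p = 0.259). Of 24 tested genes that bind or modify microtubules, 10 were below the control, beside 49.2% of all genes. Their median was 0.07 and 0 were called. TTL, the ligase that returns the terminal tyrosine to free alpha tubulin, had 79.5, 88.4 and 112 RPM against 60.8 RPM (0.57 ± 0.22, adjusted p = 0.346). Of 13 tested genes of the actin, lamin and intermediate filament cytoskeleton, 11 were above the control, where 49.2% of all genes were below it. Their median was 0.42, beside 0.01 over all genes, and 0 were called. ACTB, cytoplasmic beta actin, had 9149, 10975 and 12825 RPM against 7822 RPM (0.44 ± 0.19, adjusted p = 0.431).

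Signs of other changes in the cells were present in the same libraries. The summed level of 10 hepatocyte markers was 39549, 38110 and 21240 RPM in COL, 44219 RPM in its control and 36072 to 50594 RPM over the 4 DMSO controls. The other treated libraries ranged from 4481 to 51415 RPM, so the COL sums lay inside their range. In the fit 10 of 10 markers were below the control, beside 49.2% of all genes, with 0 called. The summed level of 12 proliferation genes was 402, 466 and 547 RPM in COL, 125 RPM in its control, 113 to 155 RPM over the DMSO controls and 191 to 1025 RPM in the other treated libraries. All 12 were above the control, where 49.2% of all genes were below it. At an unadjusted p under 0.05 in the edgeR fit 11 of the 12 were higher, beside 4.83% of all genes. After adjustment 1 was called higher, beside 0.0354% of all genes: AURKA, a mitotic kinase. AURKA had 0 reads in the control and 2.38, 2.08 and 2.93 RPM in COL, at least 9.71-fold higher than the 0.215 RPM that 3 counts would give. This fold rests on 1 control library, and AURKA reached 1.82 RPM among all controls. In the other treated libraries it ranged from 0.263 to 4.06 RPM, so the COL levels lay inside that range. Of the markers of cholangiocyte-like cells 4 were tested, 3 were below the control, beside 49.2% of all genes, and 0 were called. The other, SOX9, was above the control (0.44 ± 0.32). The 6 markers with a target summed to 1207, 1022 and 1107 RPM in COL and 1344 RPM in its control. The part of these changes in the tubulin results was not tested.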

How the data were processed

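With TMAP in Torrent Suite, the authors mapped Ion Torrent reads to the targeted transcripts of the panel (AmpliSeq, hg19). Reads with the same barcode were joined over chips, and read counts per amplicon were deposited. The authors also deposited RPM, which equalled the counts over the library total to within 0.000538, and applied no other normalization. Of the targets, 10 spike-ins had 0 reads and were left out. The tubulin genes and all lists were chosen with earlier results of these data known. Named are all 10 tubulin genes, TTC5, SCAPER, from each list up to 3 called genes of largest change in COL, and the 5 genes most like the tubulin mean; further genes were named after their values were seen. Groups and matched controls came from the sample labels.

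Counts were tested with edgeR 4.0.16 (TMM, filterByExpr, quasi-likelihood test, R 4.3.3) in 1 fit of 39 libraries with 9 control sets as blocks, 10 chemical terms and 20 residual degrees of freedom. The SE is the log2 fold change over the square root of F. Adjustment was by Benjamini-Hochberg over 14107 genes. The step was tested on simulated data. Log2 ratios are of RPM + 1. The alternatives were DESeq2 1.42.0, other size factors and filters, libraries left out, other controls, the high concentrations alone and a pseudocount of 0.1. Depth limits the precision of genes with few reads, and each condition is 1 library. Coding sequences came from GENCODE 29; protein sequences were not used here. Python 3.11.15, pandas 2.3.3 and matplotlib 3.10.9 were used.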

Additional observations from a re-analysis of the deposited data

Results flagged for a closer look

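The effects of COL and AFB1, which share a control, differed in the test of the difference itself for 3 tubulin genes: TUBA1B (log2 difference, COL minus AFB1, -0.78), TUBA1C (-0.59) and TUBA4A (-0.79). With each of the 6 treated libraries left out in turn, the calls were lost in 4, 5 and 4 of the 6 fits.

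Among the controls, 3 levels stood far from the other 3 of the same vehicle, by a gap over Dixon's limit for 4 samples. The media control of 2DG was highest for TUBA1B (789 RPM, the others 566 to 572 RPM) and for TUBA1C (957 RPM, the others 708 to 737 RPM). The DMSO control of 2NF was lowest for TUBA1C (595 RPM, the others 708 to 727 RPM). In all, 18 groups of 4 were examined, and chance flags about 1 in 20 of them. The ratios of 2DG and 2NF rest on these controls: the mean log2 ratio of TUBA1C was -0.13 in 2DG and 0.56 in 2NF. Neither is the control of COL.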

How the results depend on the processing

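In COL against its control, members called higher went from 0 to 1 (TUBA1A) with the vehicle in place of the matched control set. There 1 (TUBB2A) was called lower, and TUBB3 turned from 0.29 to -0.22. With the high concentrations alone COL has 1 library, so the log2 fold change of TUBA1A (1.69) is given without a call. Against the other 9 chemicals the vehicle block called 5 lower and 1 higher in place of 0 and 0 (7.00% of all genes against 0.0284%), and turned TUBB3 from 0.28 to -0.20. With the high concentrations alone, again with 1 COL library, TUBA1A was at 1.41 against the others. Against AFB1, DESeq2 called 5 lower and 1 higher in place of 3 and 0 (2.70% of all genes against 1.90%), no filter called 4 lower and 1 higher (1.35%), and at least 10 counts in every library 4 lower (2.02%). Leaving out a library gave 0 to 1 called higher in COL against its control, and 0 to 2 lower and 0 to 1 higher against AFB1, where TUBB3 (0.03) ranged from -0.15 without COL at 0.3 µM to 0.13 without COL at 0.05 µM, and was -0.05 without AFB1 at 0.25 µM. The cause was not tested. Of the 76 counts recomputed, 61 stayed within 1.5 times, and of the 332 values of single genes, 295 kept their direction and call, or, for ratios, stayed within the spread. Against the mean of the 4 DMSO controls, the mean log2 ratio of TUBB2A moved from -0.30 to -0.60 and that of TUBB3 from 0.28 to -0.17. Over all genes, calls in COL went from 7 to 1373 with the vehicle block, 233 without COL at 0.05 µM, 163 with DESeq2 and 52 with no filter. In the DMSO libraries alone there were 0 (by edgeR, with 3.56% lower and 4.26% higher at an unadjusted p under 0.05). No paired analysis was possible because the replicate numbers were given in accession order and mark no shared culture; the matched control set is the block of the main fit.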
